A study of Mus musculus with 6 samples.

Results

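A set of 10 genes that build the transverse tubules (T-tubules) and membrane junctions of muscle were followed in the right atrium (RA) of young mice: Cav3, Ehd4, Jph2, Jph1, Bin1, Mtm1, Dysf, Rtn2, Ank2 and Ank3. The genes were chosen by symbol, and each of the 10 symbols matched 1 of the 54093 genes in the expression table. Wild-type C57BL/6 mice, male or female by the study's methods, had a fistula made between the abdominal aorta and the inferior vena cava (volume overload, VO) or a sham operation on postnatal day 7 (P7), and RNA of the RA free wall was sequenced on P21 in 3 sham and 3 VO libraries. Apart from the operation no genotype, transgene or drug separates the groups, and the labels do not say whether a library is 1 animal or a pool. The libraries held 15963082 to 17237903 fragments on genes. FPKM stands for fragments per kilobase of gene, scaled to a size of each library that was not in every case this total. In a gene 1 kilobase long a level of 1 FPKM equals 15.6 to 18.1 fragments. The 10 genes were covered by 172 to 16661 fragments per library, so that counting alone gave an error of at most 7.62% of a value.

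T-tubules are inward folds of the surface membrane that carry the action potential into a cardiomyocyte. At the dyad they face the sarcoplasmic reticulum (SR), where calcium entering through surface channels opens the ryanodine receptors. Caveolin-3 and the BAR protein encoded by Bin1 shape the tubule membrane, junctophilins hold it against the SR, dysferlin mends it, reticulons curve the reticulum, and ankyrins tie channels and exchangers to the spectrin skeleton. Atrial cells have fewer and less regular T-tubules than ventricular cells, and in rodents the network forms during the first weeks after birth.

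Of the 10 genes, 7 had a lower and 3 a higher level in VO than in sham, with 51.5% of all tested genes below 0 in log2 fold change. Jph2, Cav3 and Rtn2 differed most, with 55.8%, 54.8% and 63.9% of their sham level left in VO, and Ehd4, the most abundant of the 10, had 75.1% left. In each of these 4 genes, and in Ank3, every VO library lay below every sham library. Bin1, Mtm1, Dysf, Ank2 and, by a very small margin, Jph1 overlapped between the groups. The sign of Ank2, whose group means were nearly equal, turned with quantile normalization and with array weights. In limma's moderated test over 12627 genes, all with a mean of at least 1 FPKM, Jph2, Cav3, Ehd4, Rtn2 and Jph1 had an unadjusted p under 0.05 in the lower direction, or 50% of the 10, and 8.08% of all tested genes did so. None of the 10 was higher at this threshold, which 3.89% of all tested genes reached. After Benjamini-Hochberg adjustment 0 of the 10 passed 0.05 (smallest adjusted p = 0.325), while 0.00792% of all tested genes, which is 1 gene, did. Groups without overlap were found for 5 of the 10 genes with VO lower, against 12.9% of all tested genes, and for 0 with VO higher, against 8.25%. The median log2 fold change was -0.32 over the 10 genes and -0.01 over all tested genes. With the libraries brought to the same sum (TPM), 3 of the 10 genes were lower at an unadjusted p under 0.05 and their median was -0.19, while the median over all tested genes moved to 0.13 and the split over all genes changed from 1020 lower and 491 higher to 489 lower and 1080 higher.

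**Figure D1:**
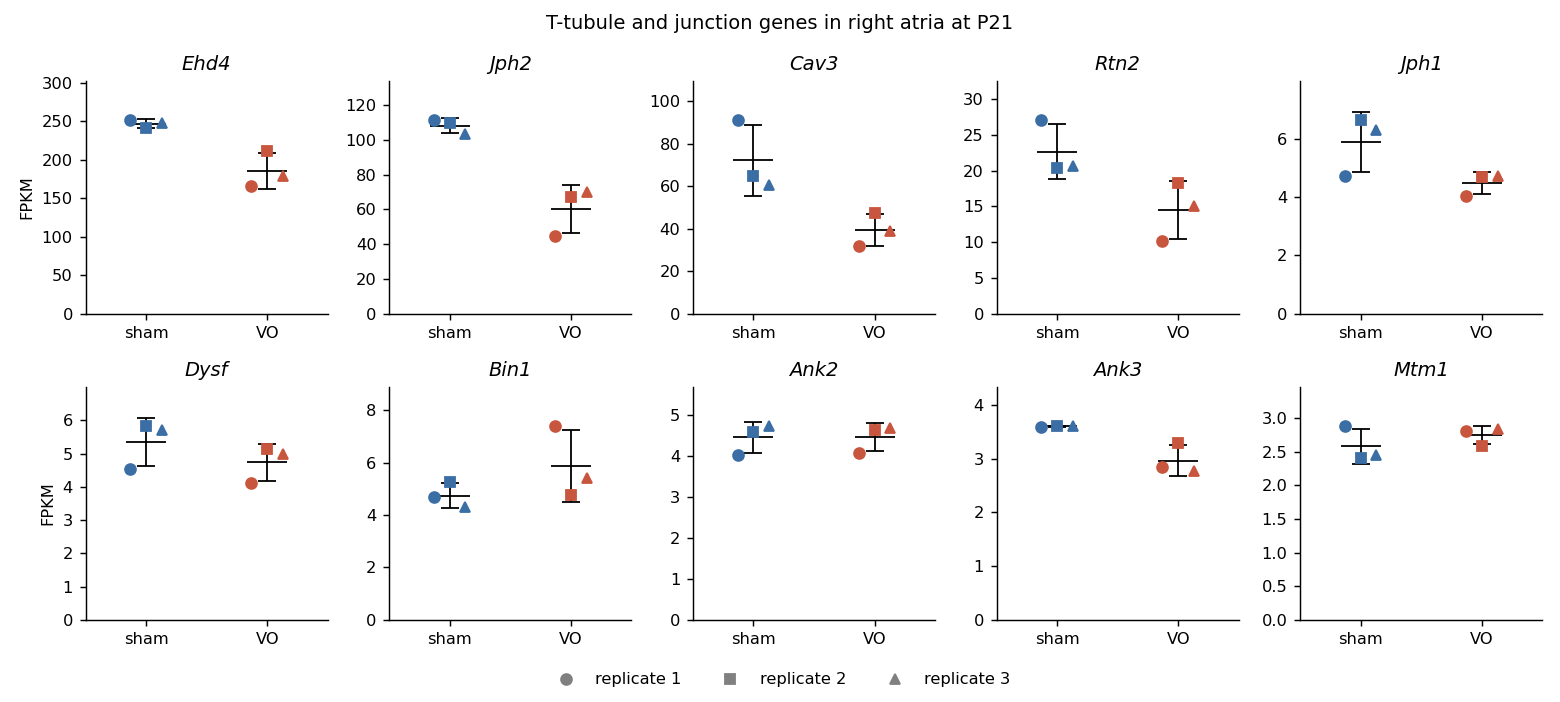
Level of each of the 10 genes in FPKM (vertical axis, from 0, a separate scale for each gene) in the 3 sham and the 3 VO libraries, with the mean as a bar and the SD as whiskers (n = 3 libraries in each group). Symbols mark the replicate number, and in Ehd4, Jph2, Cav3, Rtn2 and Ank3 all 3 VO libraries lie below the 3 sham libraries.

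Cardiomyocyte markers as a group were lower in the VO libraries, which stands beside every value that follows. All 12 genes of a cardiomyocyte marker list (Myl7, Myl4, Nppa, Myh6, Tnnt2, Tnni3, Actn2, Ttn, Myom1, Mybpc3, Ryr2 and Tnnc1) had a lower mean in VO, 7 of them with an unadjusted p under 0.05, with a median log2 fold change of -0.55. Their summed level was 15601 to 22107 FPKM in sham and 7396 to 14782 in VO. The mean log2 level of the list, centred over the 6 libraries, was 0.28 ± 0.12 in sham and -0.28 ± 0.38 in VO (SD, n = 3 libraries each), with VO 1 at -0.67, VO 3 at -0.27 and VO 2 at 0.09. In whole tissue, fewer cardiomyocytes and less of this RNA per cardiomyocyte cannot be told apart. The 10 genes were therefore also read relative to this marker level, as a second scale.

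Other cell types also moved with single libraries. The 11 macrophage and monocyte markers all had a higher mean in VO (median 0.67, 2 at an unadjusted p under 0.05), with a sum of 249 to 340 FPKM in sham, 905 in VO 1 and 286 to 353 in VO 2 and VO 3. The 9 neutrophil markers summed to 76.8 FPKM in VO 1 and to at most 12.6 in any other library. Adipocyte markers summed to 582 FPKM in VO 3 and to 38.8 to 54.5 elsewhere, and Schwann cell and neuron markers to 58.9 FPKM in VO 3 and 13.0 to 17.4 elsewhere. Fibroblast, endothelial and smooth muscle lists had medians of 0.11, -0.01 and -0.07, and the epicardial list one of 0.42 with ranges that overlapped (34.8 to 113 FPKM in sham, 42.1 to 116 in VO). Red cell markers ran from 696 to 8589 FPKM over all libraries with no order by group, and none of the 10 lymphocyte markers reached 1 FPKM on average. Since several of the genes are also used by skeletal muscle, its markers were read as well. Of 14 such markers 10 were under 1 FPKM on average, among them Ryr1, Cacna1s and Myh1, which was listed at 0 in every library, and the sum was 12.1 to 13.4 FPKM in sham and 3.48 to 7.87 in VO. Ventricular markers summed to 121 to 308 FPKM in sham and 93.5 to 143 in VO. Among them Myl2 was at 60.4 FPKM in sham 1 and 56.0 in sham 3, but at 2.02 in sham 2 and 1.54 to 20.6 in VO. The part of these other cell types in the results was not tested, beyond the values without VO 1 and without VO 3. There 4 of the 10 genes were lower at an unadjusted p under 0.05 in either case, with medians of -0.27 and -0.31. Of all 12627 tested genes, 620 were lower at this threshold without VO 1 and 953 without VO 3.

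Cav3, Rtn2 and Ank3 were also chosen by the study for qRT-PCR from genes that were lower in these libraries, so that their direction here is not independent of that choice. The paper reports each of them significantly lower in VO by that assay. The primers are shown because they tell which part of each transcript that assay reads. Bases in capitals belong to the later of the 2 exons when a primer crosses a junction, and each sequence is written 5′ to 3′.
Cav3 forward: ggatctggaagctcggatcat
Cav3 reverse: tccgcaatcacgtcttcaaaat
Rtn2 forward: agTGGCAGACCTGTTGTACTG
Rtn2 reverse: acggacacgatgctaaagtgc
Ank3 forward: ggccttaccccaatccatgtt
Ank3 reverse: TCcttagcttttgcttctacctg
The Cav3 pair spans exons 1 and 2 (chr6:112459832-112459852 and chr6:112472141-112472162) and copies 120 bases of its 1 transcript. The Rtn2 pair reads 105 bases from the junction of exons 4 and 5 into exon 5, in 2 of 3 annotated transcripts. The Ank3 pair reads 197 bases from exon 12 to the junction of exons 13 and 14, in 11 of 47 transcripts, whereas the FPKM value of Ank3 covers them all. No other annotated gene held both primers of any pair.

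The 250 bases upstream of the annotated start are shown for Cav3, Jph2, Rtn2 and Ehd4, the genes without overlap between groups whose promoters were in the RefSeq table (GRCm38.p6). The table matched 7 of the 10 genes with 14 promoters, and Bin1, Jph1 and Ank3 were not matched. Capitals mark matches on either strand to the E-box CANNTG, the M-CAT element CATTCC and the GC box GGGCGG. All sequences run 5′ to 3′ on the strand of the gene.
Cav3 (chr6:112459255-112459504, plus strand): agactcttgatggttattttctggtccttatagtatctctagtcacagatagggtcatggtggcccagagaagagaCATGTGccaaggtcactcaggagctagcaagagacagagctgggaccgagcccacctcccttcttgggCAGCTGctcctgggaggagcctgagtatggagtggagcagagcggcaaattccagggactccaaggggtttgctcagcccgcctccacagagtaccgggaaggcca
Jph2 (chr2:163397994-163398243, minus strand): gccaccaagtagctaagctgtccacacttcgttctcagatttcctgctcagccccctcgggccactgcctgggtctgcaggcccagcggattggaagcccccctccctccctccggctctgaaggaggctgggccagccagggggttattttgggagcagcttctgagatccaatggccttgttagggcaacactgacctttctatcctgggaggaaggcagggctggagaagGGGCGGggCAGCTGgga
Rtn2 (chr7:19282374-19282623, plus strand): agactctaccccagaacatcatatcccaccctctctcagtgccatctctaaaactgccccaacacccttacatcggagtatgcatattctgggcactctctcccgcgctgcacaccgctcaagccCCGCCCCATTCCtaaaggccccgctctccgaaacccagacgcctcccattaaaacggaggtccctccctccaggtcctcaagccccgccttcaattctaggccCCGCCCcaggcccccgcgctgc
Ehd4 (chr2:120154576-120154825, minus strand): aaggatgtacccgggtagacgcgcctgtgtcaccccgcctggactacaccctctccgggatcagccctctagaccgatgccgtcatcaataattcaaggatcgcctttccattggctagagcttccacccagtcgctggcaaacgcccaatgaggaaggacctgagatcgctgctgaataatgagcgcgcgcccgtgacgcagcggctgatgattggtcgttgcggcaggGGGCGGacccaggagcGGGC

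Counted with the start as base 0, the stretch of Cav3 held E-boxes at -174 and -106, Jph2 a GC box at -17 and an E-box at -9, and Ehd4 GC boxes at -20 and -4, the second of which runs past the end of the stretch shown. Rtn2 held GC boxes at -125 and -22 and an M-CAT element at -119, whose first base follows the GC box directly. Windows of 300 bases, including 50 after the start, held an E-box in 72.3%, a GC box in 35.7% and an M-CAT element in 14.7% of all 32851 promoters of the table, so a match is common and describes only these letters. The CArG box, bound by serum response factor, and the MEF2 site were found in 0 of the 14 promoters, which belong to 7 of the 10 genes. They were found in 1.63% and 3.19% of all promoters, so 0 of 14 says little. The TATAAA box was found in 1 of the 14, in a promoter of Ank2, and in 13.6% of all.

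Caveolin-3 is the muscle form of caveolin, the coat protein of the small flask-shaped pits from which early T-tubules are thought to grow. Cav3 (ENSMUSG00000062694; GRCm38 chr6:112459505-112472872, plus strand) is a compact protein-coding gene of 2 exons and 1 transcript, and both exons are read by the primer pair shown above. Its level was 91.2, 64.5 and 60.4 FPKM in the sham libraries and 32.0, 47.2 and 39.1 FPKM in the VO libraries. The groups did not overlap, and VO 1 was the lowest. The log2 fold change was -0.86 (standard error 0.21, 95% interval -1.34 to -0.38, adjusted p = 0.344). Sham 1 stood well above the other sham libraries, which gave Cav3 a coefficient of variation of 23.2% in sham. Cav3 was the gene that stayed lower without overlap when read relative to the cardiomyocyte markers, by a log2 difference of -0.29 (adjusted p = 0.271). The margin was narrow, with VO 1 at 5.67 and sham 3 at 5.70. The unadjusted p (limma) was 0.202 on this scale and 0.0040 on the FPKM scale. Adjusted p-values of the 2 scales cannot be compared, since 38.7% of all tested genes were higher at an unadjusted p under 0.05 on the marker scale.

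Ehd4 belongs to the EHD family of ATPases, which bind and bend membranes during recycling from endosomes. Ehd4 (ENSMUSG00000027293; chr2:120089175-120154606, minus strand) was read at 252, 241 and 248 FPKM in sham and at 166, 211 and 179 FPKM in VO. The sham values lay close together, with a coefficient of variation of 2.15%, and all 3 VO values were below them. The log2 fold change was -0.42 (standard error 0.13, 95% interval -0.73 to -0.11, adjusted p = 0.404). It was -0.28 with TPM and -0.13 with quantile normalization, and neither kept an unadjusted p under 0.05. Relative to the cardiomyocyte markers the sign turned, to a difference of 0.15 with overlap between groups.

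Both junctophilins span the gap of the dyad, with a C-terminal anchor in the SR membrane and repeats that bind the tubule membrane. Jph2, the cardiac form (ENSMUSG00000017817; chr2:163336242-163397993, minus strand), was at 112, 109.9 and 103 FPKM in sham and at 44.5, 66.9 and 69.8 FPKM in VO. The gap between the groups was wide compared with the spread in sham, and VO 1 was again the lowest. Jph2 had the smallest p of the 10 genes. Its log2 fold change was -0.87 (standard error 0.18, 95% interval -1.30 to -0.44, adjusted p = 0.325), and it ranked 61 by p among all lower genes. Jph1, the form best known from skeletal muscle (ENSMUSG00000042686; chr1:16964560-17097889, minus strand), was far less abundant, at 4.72, 6.66 and 6.30 FPKM in sham and 4.06, 4.71 and 4.72 FPKM in VO. Sham 1 lay within the VO range, by a margin smaller than the rounding of these values. The log2 fold change of Jph1 was -0.37 (standard error 0.16, 95% interval -0.74 to -0.0036, adjusted p = 0.414). Its unadjusted p was under 0.05 in 7 of 19 alternative analyses, among them FPKM as deposited, which repeats the main fit. It was not under 0.05 without sham 2, sham 3, VO 1, VO 2 or VO 3. Relative to the cardiomyocyte markers Jph2 differed by -0.30 and Jph1 by 0.20, both with overlapping groups.

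Bin1 and Mtm1 act on membrane curvature. Bin1 encodes a BAR-domain protein that folds the tubule membrane, and Mtm1 encodes myotubularin, a phosphatase of phosphoinositide lipids that is altered in a muscle disease with disordered triads. Bin1 (ENSMUSG00000024381, chromosome 18, plus strand) was at 4.67, 5.25 and 4.31 FPKM in sham and 7.40, 4.78 and 5.41 FPKM in VO. VO 1 stood far above the sham range and VO 3 just above it, and the log2 fold change of 0.28 (standard error 0.18, 95% interval -0.14 to 0.70, adjusted p = 0.498) was 0.10 without VO 1. The table gives Bin1 a length of 2451 bases, while the exons of the reference annotation cover 4117 bases, so that its level relative to other genes depends on the gene model. Mtm1 (ENSMUSG00000031337; chrX:71210767-71315691, plus strand) was at 2.88, 2.41 and 2.45 FPKM in sham and 2.81, 2.59 and 2.84 FPKM in VO, for a log2 fold change of 0.09 (standard error 0.14, 95% interval -0.23 to 0.41, adjusted p = 0.754). Mtm1 lies on the X chromosome, and the X-linked Xist RNA was at 28.2 to 63.6 FPKM in 4 libraries and near 0 in sham 2 and VO 3, so each group held both kinds of library. Relative to the cardiomyocyte markers, Bin1 differed by 0.85 (adjusted p = 0.111) with overlap and Mtm1 by 0.66 (adjusted p = 0.129) without it. The median of all tested genes on that scale was 0.56.

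Dysferlin is a calcium-binding ferlin that brings vesicles to wounds of the muscle membrane and is found at T-tubules. Dysf (ENSMUSG00000033788; chr6:84008590-84211060, plus strand) was at 4.52, 5.83 and 5.71 FPKM in sham and 4.10, 5.13 and 4.99 FPKM in VO. The ranges overlapped, and within each group replicate 1 was the lowest. The log2 fold change was -0.17 (standard error 0.15, 95% interval -0.52 to 0.18, adjusted p = 0.599), and relative to the cardiomyocyte markers the difference was 0.40. The log2 fold change was -0.07 without VO 1, -0.10 without sham 2 and -0.28 without sham 1. Exons of Dysf overlap those of the opposite-strand genes Gm15475 and Gm33024 over 352 and 105 bases. Both were low, at 0.132 and 0.297 FPKM on average, and reads of the 2 strands cannot be told apart where strand was not used in counting.

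Reticulon-2 is a hairpin protein that bends the membrane of the endoplasmic reticulum and, in muscle, of the SR near the tubules. Rtn2 (ENSMUSG00000030401; chr7:19282624-19296160, plus strand) was at 27.1, 20.3 and 20.6 FPKM in sham and at 10.1, 18.3 and 15.1 FPKM in VO. The highest VO library stayed just below the lowest sham library, and VO 1 was the lowest. The log2 fold change was -0.67 (standard error 0.23, 95% interval -1.21 to -0.13, adjusted p = 0.406). It was -0.54 without sham 1, where the unadjusted p of 0.076 was above 0.05, and -0.43 without VO 1. Relative to the cardiomyocyte markers the difference was -0.10, with overlap.

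Ankyrin-B, encoded by Ank2, holds the sodium-calcium exchanger and the sodium pump at the tubules, and ankyrin-G, encoded by Ank3, holds sodium channels, mainly at the intercalated disc. Ank2 (ENSMUSG00000032826; chr3:126921612-127499350, minus strand) was at 4.04, 4.60 and 4.74 FPKM in sham and 4.07, 4.63 and 4.69 FPKM in VO, nearly the same values in each group. Its log2 fold change was 0.0025 (standard error 0.12, 95% interval -0.28 to 0.28), and this interval still holds moderate differences in either direction. Ank3 (ENSMUSG00000069601; chr10:69398773-70027438, plus strand) was at 3.59, 3.60 and 3.61 FPKM in sham and at 2.84, 3.29 and 2.77 FPKM in VO. Its sham coefficient of variation, 0.255%, was the smallest of the 10 genes. This lay below the counting error of Ank3, up to 2.51% of a value, so it understates the spread. All 3 VO values were lower, and the log2 fold change was -0.28 (standard error 0.12, 95% interval -0.56 to 0.0061, adjusted p = 0.414), which had an unadjusted p under 0.05 in 5 of 18 alternative analyses. Relative to the cardiomyocyte markers, Ank2 differed by 0.57 without overlap (adjusted p = 0.129), and Ank3 by 0.29 with overlap. The median of all tested genes on that scale was 0.56, so Ank2 lay close to it. Both are very long gene models, of 35004 and 34838 bases over 27 and 47 transcripts, so their FPKM values average over many isoforms.

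In sham RAs the per-length levels fell in the order Ehd4, Jph2, Cav3, Rtn2, Jph1, Dysf, Bin1, Ank2, Ank3 and Mtm1. The ranges of Ehd4, Jph2, Cav3 and Rtn2 were separate from their neighbours in this order, and so were those of Ank3 and Mtm1, with Ank2 apart from Ank3. Jph1, Dysf and Bin1 each overlapped with the next gene. In VO the first 4 genes kept their places, but the ranges of Jph2 and Cav3 overlapped. Bin1, at rank 7 in sham, had rank 5 in VO, within overlapping ranges.

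**Figure D2:**
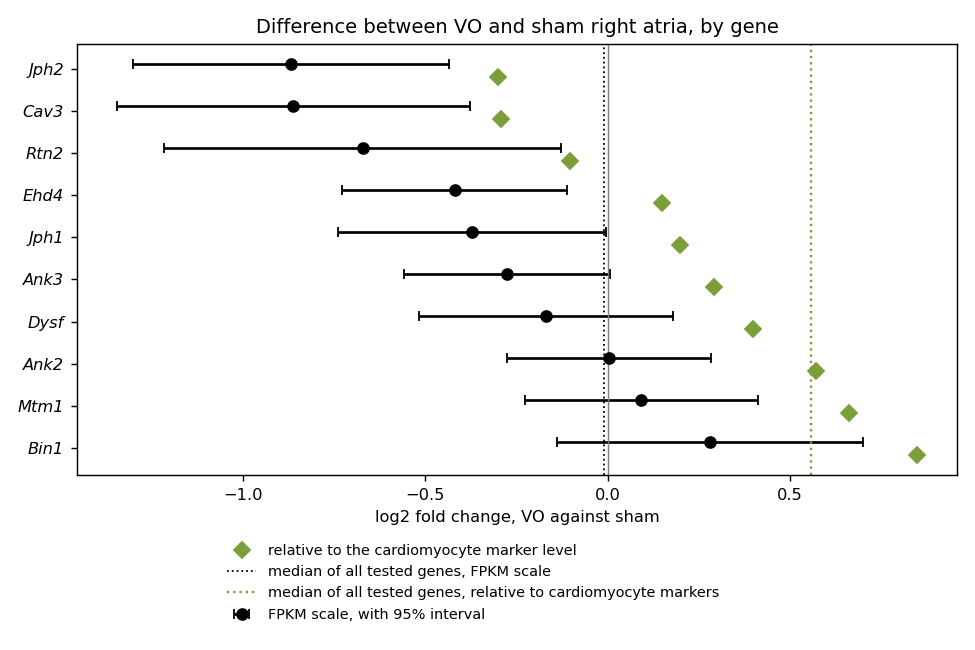
Log2 fold change of VO against sham (horizontal axis) for each gene, with its 95% interval from limma on the FPKM scale (black, n = 3 libraries in each group) and the difference relative to the mean cardiomyocyte marker level (green diamonds); dotted lines are the medians of all tested genes on each scale, -0.01 and 0.56. On the FPKM scale Jph2, Cav3 and Rtn2 lie farthest to the left, and on the second scale 3 genes lie below 0 and 7 above.

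On the scale relative to the cardiomyocyte markers, where the median of all 12627 tested genes was 0.56, 3 of the 10 genes were below 0 and 7 above. At an unadjusted p under 0.05, 0 were lower, against 0.356% of all tested genes, and 1 was higher, which was Bin1, against 38.7%. Cav3 was lower, by a narrow margin, and Mtm1 and Ank2 were higher without overlap on this scale. The share of all tested genes without overlap was not counted there. The order of the 10 genes was the same on both scales, since the scaling adds the same amount to each log2 fold change. The 3 genes below 0 were Jph2, Cav3 and Rtn2, and 0 of the 10 differences passed an adjusted p of 0.05 (limma, smallest adjusted p = 0.111).

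Genes that work beside the 10 were read in 7 lists of 89 genes, of which 78 were tested. Among them 15 were lower and 5 higher at an unadjusted p under 0.05, and 0 passed adjustment over all genes (smallest adjusted p = 0.283). Over all tested genes 8.08% were lower and 3.89% higher at this threshold, and these shares stand beside the count of each list below. Of the 15 lower genes, 7 were in the list of dyad scaffold and Z-disc anchors, while the lists of caveolae, membrane curvature, membrane repair and endoplasmic reticulum shaping had medians between -0.01 and 0.19.

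The caveola coat and EHD list held 11 tested genes with a median log2 fold change of -0.01, of which 2 were lower and 1 higher at an unadjusted p under 0.05. Cavin4, the muscle cavin that joins caveolin-3 at forming tubules, was at 9.48, 7.71 and 9.87 FPKM in sham and 6.09, 5.76 and 6.84 FPKM in VO, a log2 fold change of -0.52 (adjusted p = 0.364) without overlap. Pacsin3, a muscle F-BAR protein, was the other, at -0.73 (adjusted p = 0.404). Ehd2, which sits at the neck of caveolae, was higher by 0.38 (adjusted p = 0.414), with 30.8 to 43.4 FPKM in sham and 46.2 to 55.8 in VO and no overlap, but kept an unadjusted p under 0.05 in 1 of the 6 fits that leave out a library, the one without sham 3. Cav1, the caveolin of most non-muscle cells, was at 121 to 129.8 FPKM in sham and 122 to 163 in VO.

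In the list of membrane curvature and phosphoinositides, around Bin1 and Mtm1, 10 of 11 tested genes had a higher mean in VO and 0 had an unadjusted p under 0.05, with a median of 0.13. The smallest p among the higher genes was that of the lipid kinase Pik3c3 at 0.19 (adjusted p = 0.435), and the lower gene was the dynamin Dnm2 at -0.10 (adjusted p = 0.632). In the membrane repair list around Dysf, 9 of 11 tested genes had a log2 fold change above 0, 2 of them with an unadjusted p under 0.05, and the median was 0.19. The count of 2 was 0 without sham 1, sham 3, VO 1 or VO 3, 4 without VO 2 and 5 with TPM, and the median was 0.094 without sham 1. Anxa2, an annexin that binds calcium and membrane lipids, was higher by 0.32 (adjusted p = 0.410), with 26.9 to 32.6 FPKM in sham and 33.6 to 41.1 in VO, and the protease Capn1 was the second such gene. Trim72, the muscle repair protein known as MG53, was at 20.6 to 21.6 FPKM in sham and 12.1, 18.6 and 21.6 in VO, a log2 fold change of -0.33 (adjusted p = 0.499) with overlap.

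The spectrin and ankyrin list had a median log2 fold change of -0.13, which was -0.23 without sham 1, -0.07 without sham 3 and 0.0050 with TPM. Ank1, an ankyrin with a short muscle form in the SR membrane, was at 21.1, 18.3 and 19.1 FPKM in sham and 9.18, 14.9 and 13.7 FPKM in VO, a log2 fold change of -0.65 (adjusted p = 0.400) without overlap. Sptbn1, the main beta spectrin of non-erythroid cells, was at 49.0 to 59.9 FPKM in sham and 60.4 to 63.4 in VO, a log2 fold change of 0.16 (adjusted p = 0.536).

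In the dyad scaffold and Z-disc list, all 11 tested genes had a lower mean in VO, 7 of them with an unadjusted p under 0.05, and the median was -0.48. The largest difference was in Lrrc10, a leucine-rich repeat protein of the dyad region and Z-disc, with 167, 136 and 156 FPKM in sham and 59.2, 85.3 and 85.0 FPKM in VO. The groups were far apart, and the log2 fold change was -1.02 (standard error 0.17) with an adjusted p of 0.283. The other six were the kinase gene Speg, the Xin repeat genes Xirp1 and Xirp2, the PDZ-LIM gene Ldb3, and Bves and Popdc2, which encode cyclic AMP-binding membrane proteins. The count was 4 without sham 2 and 4 without VO 1, 3 with quantile normalization and 1 relative to the cardiomyocyte markers, and the median was -0.30 without VO 1. Jph3 and Jph4, the junctophilins of neurons, were under 1 FPKM.

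In the dyad calcium release list 3 of 14 tested genes were lower at an unadjusted p under 0.05, with a median of -0.16. With quantile normalization and relative to the cardiomyocyte markers 0 were lower, and the median was -0.08 without VO 1, -0.24 without VO 2, -0.02 with TPM, 0.02 with quantile normalization and 0.41 relative to the markers. Slc8a1, the sodium-calcium exchanger that Ank2 anchors, was at 52.1, 53.7 and 53.1 FPKM in sham and 38.5, 42.3 and 36.9 FPKM in VO, a log2 fold change of -0.43 (adjusted p = 0.344) without overlap. Slc8a1 is likewise one of the genes the study took from this RNA-seq comparison for qRT-PCR, where the paper reports it lower in VO. The calcium-storing protein of the SR, Casq2, and the SR gene Srl were the other two. The pore of the L-type calcium channel, Cacna1c, had a log2 fold change of 0.02 (adjusted p = 0.955), its subunit Cacnb2 one of 0.10 (adjusted p = 0.702) and the ryanodine receptor Ryr2 one of -0.13 (adjusted p = 0.684). In the list of endoplasmic reticulum shaping genes around Rtn2, 0 of 12 tested genes were lower and 2 higher at an unadjusted p under 0.05, with a median of 0.07. Arl6ip1, a small shaping protein of the reticulum, was higher by 0.41 (adjusted p = 0.410) with overlap, and Reep3 was the other, while the fusion GTPase Atl2 was at -0.39 (adjusted p = 0.423). The higher count was 0 without sham 2, VO 1 or VO 3, 1 without sham 1 or sham 3 and 5 without VO 2, and the median was 0.02 without sham 2 and 0.12 without sham 1.

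**Figure D3:**
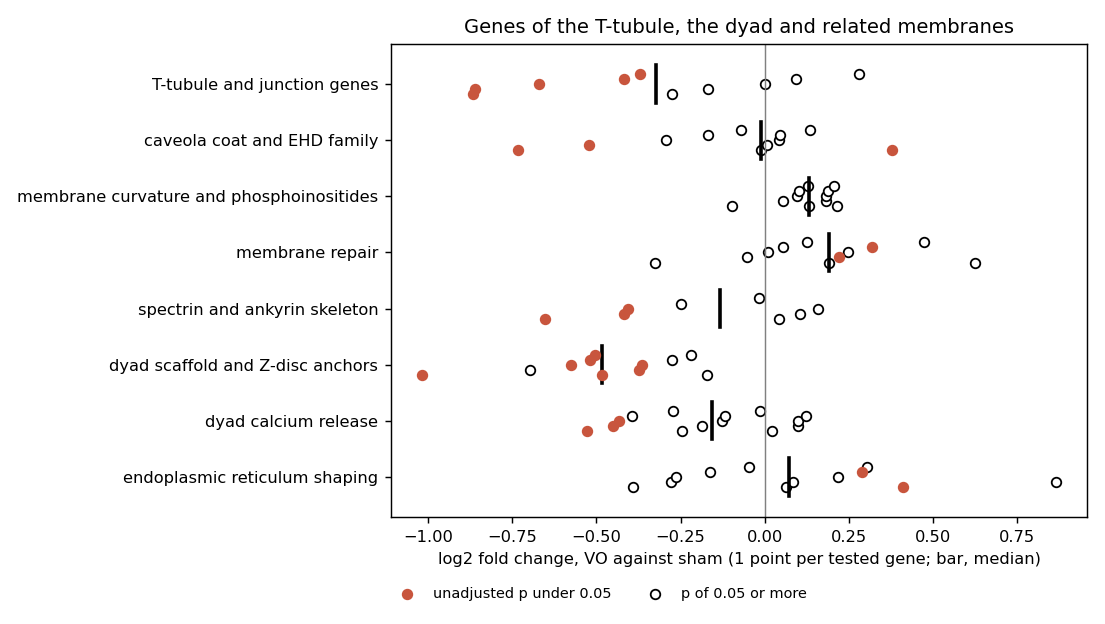
Log2 fold change of VO against sham (horizontal axis) of every tested gene of the 10 T-tubule and junction genes and of the 7 lists of related genes, 1 row per list, with filled points for an unadjusted p under 0.05 and a bar at the median of each list. The rows of the 10 genes and of the dyad scaffold list lie mostly to the left of 0, with medians of -0.32 and -0.48, and the row of membrane repair mostly to the right, with a median of 0.19.

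All of the 10 genes but Bin1 were then compared in 7 pairs with a relative in the same library, which removes any scaling between libraries. The log2 ratio of 6 of the 7 pairs did not overlap between the groups, and each of these had an exact permutation p of 0.1, two-sided, the smallest that 3 libraries against 3 can give (0.117 adjusted over the 7 pairs). The design therefore cannot pass 0.05 here. The share of other gene pairs whose ratios do not overlap was not computed, so the count of 6 has nothing to be set against. Some gaps were narrow, as in Rtn2 to Rtn4 (log2 ratio -0.23 in sham 2 and -0.29 in VO 2). In Dysf to Myof the closest values were 1.18 in sham 2 and 1.10 in VO 2. Jph2 stood at 23.6, 16.5 and 16.4 times the level of Jph1 in sham and at 11.0, 14.2 and 14.8 times in VO, a log2 difference of -0.50. Cav3 stood at 0.737, 0.532 and 0.465 of Cav1 in sham and at 0.247, 0.388 and 0.240 in VO, a log2 difference of -0.99. The Jph2 to Jph1 ratio was highest in sham 1 and lowest in VO 1, the libraries with the highest and lowest marker level (0.42 and -0.67). Whether this ratio follows the share of cardiomyocyte RNA was not tested. Cav1 is a gene of endothelium and other cell types, so the Cav3 to Cav1 ratio can also move with that share. A change of Cav3 and a change of the share cannot be told apart. Ehd2, Myof and Rtn4, used for the next ratios, are not particular to cardiomyocytes either, and the same holds there.

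Ehd4 to Ehd2 had ratios of 8.17, 5.69 and 5.71 in sham and 3.43, 4.57 and 3.21 in VO, a log2 difference of -0.80. Dysf to Myof, the ferlin of non-muscle and regenerating cells, also differed by -0.80 on the log2 scale, and by -0.46 without VO 1, where Myof was at 4.11 FPKM against 1.48 to 2.62 FPKM in the other libraries. Rtn2 to Rtn4, the widely expressed reticulon, differed by -0.89, and by -0.56 without VO 1. Jph2 to Jph1 differed by -0.32 without sham 1. Ank2 to Ank3 was the pair without overlap in the other direction, with ratios of 1.12, 1.28 and 1.31 in sham and 1.43, 1.41 and 1.69 in VO, a log2 difference of 0.28. Mtm1 to Mtmr2 overlapped between the groups, with a difference of -0.04 (exact permutation p = 0.8).

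**Figure D4:**
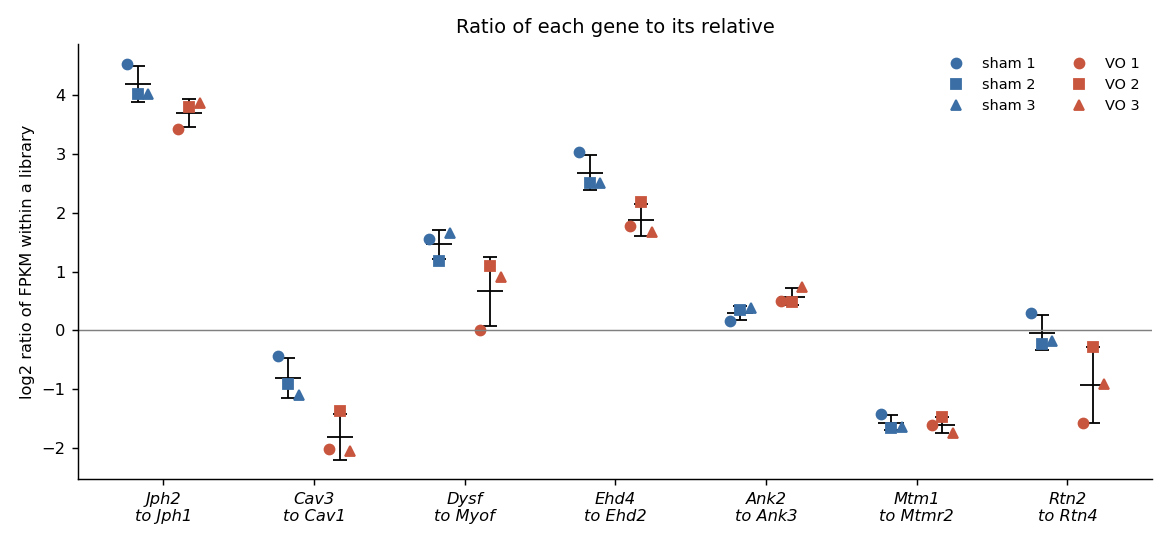
Log2 ratio of FPKM of each gene to its relative within a library (vertical axis) for 7 pairs, in 3 sham (blue) and 3 VO (red) libraries, with the mean as a bar and the SD as whiskers. The VO libraries lie below the sham libraries in 5 pairs, above them for Ank2 to Ank3, and among them for Mtm1 to Mtmr2.

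The genes whose levels followed each of the 10 most closely were sought among the 4260 genes with a mean of at least 10 FPKM, by Pearson's r over the 6 libraries. The libraries form 2 groups and differ in cardiomyocyte RNA, which both raise r, so the values are a description. Cav3 was followed by Prmt1 (r = 0.998) and Atp5g3 (0.997), Jph2 by Unc45b (0.997) and Ehbp1l1 (0.995), Rtn2 by Josd2 (0.998) and Nipsnap2 (0.998), and Ehd4 by Cap2 (0.998) and Ctnna1 (0.995). For these 4 genes between 104 and 374 genes had an r above 0.95, so the named pairs are 2 of many. The other six had 3 to 36 such genes. Jph1 was followed by Nexn (0.984) and March6 (0.974), Dysf by Trak2 (0.995) and Usp13 (0.988), and Bin1 by Rap2a (0.996) and Mapk3 (0.987). Ank2 was followed by Tmem252 (0.986) and Mgat4b (0.983), Ank3 by mt-Ty (0.984) and Smg5 (0.982), and Mtm1 by Dnajc10 (0.974) and Plcb4 (0.963).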

How the data were processed

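RNA of RA free wall from mice at P21 was sequenced in 3 sham and 3 VO libraries, grouped by the GEO labels. The authors aligned paired reads with HISAT2 2.0.5, counted fragments on genes with featureCounts 1.5.0-p3 and turned the counts into FPKM by gene length; the submitters' processing notes also name StringTie 1.3.3b, GATK 3.7, DESeq2 1.16.1 and the builds GRCm38 and mm10. The library kit was NEBNext Ultra, and use of strand in counting is not given in the sources used here. The deposited FPKM table held 54093 complete genes and 1 incomplete row, which was left out; 98.4% of the 54059 genes shared with GENCODE M21 had identical coordinates. Multiplied by gene length, 100% of the values above 0 came out as whole multiples (within 0.001) of a constant that each library has, which gave the fragments behind them.

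Median-of-ratios scaling gave a factor of 1 in each library, so it left the deposited values unchanged. The deposited FPKM thus already had equal median ratios. The library size behind it was 15557402 in sham 1 and 18144117 in VO 1. The fragments recovered in these libraries were 16494342 and 16852482. Genes with a mean FPKM of 1 or more (12627 genes, all 10 chosen genes among them) were fitted as log2(FPKM + 0.1) with limma 3.58.1 in R 4.3.3 (lmFit, eBayes with trend), VO against sham, two-sided. P-values were adjusted by Benjamini-Hochberg over the 12627 genes, with 95% intervals from the moderated test. Fold changes are on the log2(FPKM + 0.1) scale, which understates low genes. The fit was tested on simulated data with known changes. The simulation had a fixed spread between libraries and no shift of cell types, so it checks the code and not its power in these data. Ratios of relatives were compared by exact permutation. The alternatives were pseudocounts of 1 and 0.01, a mean of at least 0.1 or 5 FPKM or no filter, and FPKM as deposited. Further alternatives were TPM, quantile normalization, scaling to the cardiomyocyte markers, eBayes without trend, array weights and voom on recovered fragments. The replicate number as a block and each library left out completed them. FPKM as deposited repeats the main fit, since every scaling factor was 1, so its agreement was fixed in advance.

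The 10 genes, the 7 lists of related genes and the marker lists were chosen with earlier results of these data known. Named are all 10 genes, in each list the gene with the smallest p in each direction, the relatives in the ratios, the 2 genes most alike to each of the 10, and reported markers; the other list genes with an unadjusted p under 0.05, Cav1, Cacna1c, Ryr2, Jph3 and Jph4 were added after their values were seen. Nothing says that the libraries came from separate animals, so p-values measure the spread between these libraries only, and counting errors cover sampling of fragments only. A result of the spectrin and ankyrin list is not reported here. The authors' own test, DESeq2 at an adjusted p under 0.05, called many more genes in the paper and was not repeated. Python 3.11.15 and matplotlib 3.10.9 were used for the figures.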

Additional observations from a re-analysis of the deposited data

How the results depend on the processing

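The direction of Cav3, Jph2, Rtn2, Bin1 and Mtm1 was the same in every alternative that tested them, and 0 of the 10 genes reached an adjusted p under 0.05 in any. Over the alternatives the adjusted p of Cav3 ranged from 0.243 to 0.693 and that of Jph2 from 0.191 to 0.693. The count of 5 genes lower at an unadjusted p under 0.05 was 3 with TPM and 0 after scaling to the cardiomyocyte markers. It was 6 with array weights and 6 with voom, where Ank3 was added, and 4 to 5 with single libraries left out. Among all tested genes 854 were lower with array weights, 1070 with voom and 574 to 1214 with single libraries left out. The median of -0.32 was -0.19 with TPM, -0.42 with a mean of at least 5 FPKM, where Mtm1, Ank2 and Ank3 were no longer tested, and 0.24 after cardiomyocyte scaling, with -0.38 to -0.27 over the libraries left out. Cardiomyocyte scaling also turned the sign of Jph1 (0.20), Dysf (0.40), Ank3 (0.29) and Ehd4 (0.15), by its construction, since it adds the lower marker level of VO back to every gene. Over all tested genes it gave 45 lower and 4887 higher at an unadjusted p under 0.05, and 1020 lower and 491 higher were found without it. The sign of Ank2 turned with quantile normalization (-0.018) and array weights (-0.0098), and ran from -0.065 to 0.066 over the libraries left out, with Mtm1 to Mtmr2 from -0.10 to 0.037. Same-numbered libraries of the 2 groups did not deviate together (r of -0.108, 0.0112 and -0.0292 across genes), so the numbers were not taken as pairs. With the replicate block the count was 4 of the 10 genes, since Rtn2 had an unadjusted p of 0.054, and over all genes 608 were lower and 324 higher. The dyad scaffold count of 7 was 4 with TPM and 3 with quantile normalization, and the dyad calcium count of 3 was 0 with quantile normalization; the cause was not tested. Depth limits Bin1 most, with 172 to 329 fragments per library.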
